A study of Mus musculus with 72 samples.

Results

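Joining of a single Cas9 break on chromosome 6 was compared between neural progenitor cells given the Pol θ inhibitor ART558 and cells given its solvent DMSO, neither of them under added replication stress. The comparison held 5 LAM-HTGTS libraries (a sequencing method that amplifies linearly from a known break and reads the DNA joined to it) out of 72 samples in the series. They were the 3 ART558 and 2 DMSO libraries of the chr6 bait in the collection made for the inhibitor, chosen by their labels alone, and they were sequenced on 1 run. All came from the parental Nxp010 line, ES cell-derived neural progenitor cells of the genotype NestinCre+Xrcc4-/-p53-/-, so the DMSO cells also lacked Xrcc4 and p53. ART558 was given at 5 µM for 72 h and then at 2.5 µM for 24 h. A further 7 DMSO libraries of the same line and bait, from the collection on promoter and enhancer deletions and from other sequencing runs, served only as a range of DMSO values and entered no test. The sources differ on whether libraries of a group are technical repeats or independent replicates. Every p-value below measures only the spread between these libraries of 1 line, which may be technical. LAM-HTGTS reads DNA junctions, so no marker level could be set against the labelled cell type.

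XRCC4 is the partner of DNA ligase IV, the enzyme that seals breaks in classical non-homologous end joining, and p53 loss lets cells with unrepaired breaks survive. Cells without this route join breaks through alternative routes, of which theta-mediated end joining is the best known. In that route the polymerase domain of Pol θ extends one 3′ end that is paired with the other through a few shared bases (a microhomology), and ART558 blocks this DNA synthesis. In LAM-HTGTS a primer next to the Cas9 site copies outwards through the broken end (the bait) into whatever it was joined to (the prey), so each junction records how much of the bait was lost, how many bases bait and prey share, and where the prey lies.

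The bait lies between genes, 6422 bp from Foxi3, a forkhead transcription factor gene that is the nearest protein-coding gene. The guide (gagggttggaaatgctcgta) matched the minus strand at chr6:70950106-70950125 of GRCm38, next to a TGG PAM, which puts the cut between bases 70950108 and 70950109. The bait from the nested primer to the cut was 98 bases long, and it is shown with the guide's bases up to the cut in capitals, followed by the first 40 genomic bases past the cut, since every class below is defined against this point.
Bait, minus strand of chr6:70950109-70950206: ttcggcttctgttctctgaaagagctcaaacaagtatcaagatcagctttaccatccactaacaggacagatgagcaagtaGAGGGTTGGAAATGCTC
Past the cut, minus strand of chr6:70950069-70950108: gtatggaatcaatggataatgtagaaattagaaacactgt

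The 5 junctions within 1 Mb of the cut that had the highest mean share over the 5 libraries were all small deletions with 4 to 8 bp of microhomology. They are shown as 30 bases of bait and 30 of prey, with the shared bases, counted once, in capitals.
Product 1, 32 bp deleted: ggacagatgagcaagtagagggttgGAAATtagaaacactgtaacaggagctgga
Product 2, 14 bp deleted: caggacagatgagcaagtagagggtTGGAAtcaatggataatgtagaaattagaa
Product 3, 23 bp deleted: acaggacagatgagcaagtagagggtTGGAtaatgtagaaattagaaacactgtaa
Product 4, 78 bp deleted: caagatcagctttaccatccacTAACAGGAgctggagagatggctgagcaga
Product 5, 71 bp deleted: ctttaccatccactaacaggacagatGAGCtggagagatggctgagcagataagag
Product 1 joined the GAAAT at the Cas9 end to the same 5 bases past the cut, and it was read 6 and 7 times in the DMSO libraries and 6, 2 and 6 times in the ART558 libraries. All 5 products were read in all 5 libraries. No product made up more than 0.0530% of junctions on average. The deposited tables hold no read marked as a duplicate, and distinct products made up 95.6% to 98.6% of the junctions of each library. How many reads stood behind a row is unknown.

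Junctions on the autosomes, X and Y numbered 30938 and 25556 in the DMSO libraries and 4980, 4700 and 10856 in ART558 libraries 1, 2 and 3. The deposited file of ART558 library 1 breaks off in the second of 4 sequencing lanes, so its 5075 complete rows are part of that library. ART558 library 2 stood apart from the other ART558 libraries in most of what follows, and values without it are given for the results that turn on it. Shares also moved along the files, which list reads in lane order. DMSO library 1 had 19.7% of its junctions on other chromosomes in the whole file, 14.9% in lane 1 and 9.62% in the first 4722 rows, as many as the smallest file holds. Class shares and the main distances close to the break are therefore also given for the first 4722 rows of each file; row number, position in the file and lane change together there, and their parts were not tested. Intervals for counting error (95%, Wilson) reached at most 1.36 percentage points either side of a class share.

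Junctions were sorted into 8 classes by where the prey lay and how it was oriented. Prey past the cut in the direction of the bait marks a deletion, prey past the cut in the opposite direction marks an inversion or a join to another copy of the chromosome, and prey on the bait side of the cut joins the bait to a further copy of its own side, such as that of the sister chromatid. In ART558 the long deletions and the inverted joins fell to a small part of their DMSO level, while the joins to other chromosomes and the shortest deletions took a larger part of the library. With 3 libraries against 2, the exact permutation test cannot give a p below 0.1, so it calls nothing by itself. In 6 of the 8 classes (75.0%) the groups did not overlap.

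**Figure D1:**
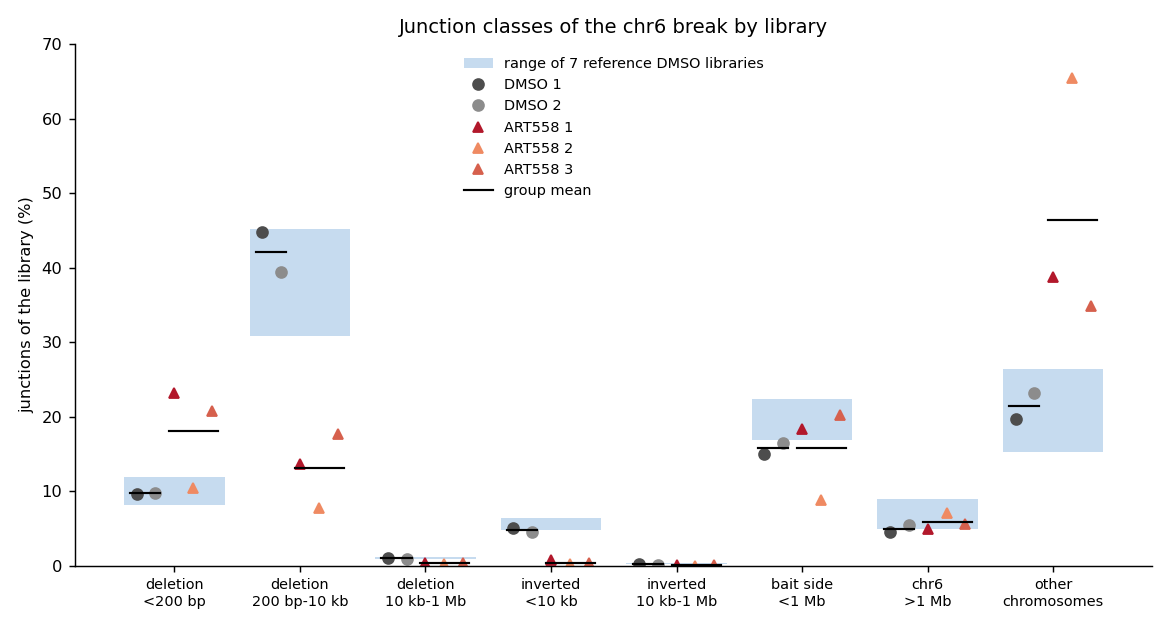
Share of each library's junctions (y axis, percent) in the 8 junction classes (x axis). Points are single libraries (circles DMSO, triangles ART558), black bars are group means and blue boxes are the range of the 7 reference DMSO libraries. Deletions of 200 bp to 10 kb held 44.8% and 39.4% of the DMSO junctions and 7.81% to 17.7% of the ART558 junctions.

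Deletions of 200 bp to 10 kb were the main product of the DMSO cells. They made up 44.8% and 39.4% of junctions in the DMSO libraries and 13.7%, 7.81% and 17.7% in the ART558 libraries. The groups did not overlap, and the mean was 3.23-fold higher in DMSO (42.1% ± 3.81 SD, n = 2, against 13.1% ± 4.98 SD, n = 3; exact permutation p = 0.1, the smallest possible). The reference DMSO libraries held 30.8% to 45.2%, so all 3 ART558 libraries lay below 9 of 9 DMSO libraries. Over the first 4722 rows the shares were 54.7% and 49.5% against 13.9%, 7.81% and 18.5%. Deletions of 10 kb to 1 Mb fell as well, from 1.08% and 0.896% to 0.301%, 0.191% and 0.415%.

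Inverted prey within 10 kb past the cut showed the largest relative loss of the 8 classes. The DMSO libraries held 5.01% and 4.54% of their junctions there and the ART558 libraries 0.723%, 0.191% and 0.368%. This was 1551 and 1159 junctions in DMSO against 36, 9 and 40 in ART558, an 11.2-fold difference of the mean shares (exact permutation p = 0.1). The first 4722 rows held 3.90% and 4.24% against 0.733%, 0.191% and 0.297%. Inverted joins were 8.58% and 8.57% of all joins past the cut in DMSO, and 2.12%, 1.03% and 1.08% in ART558, so they were a smaller part of the joins past the cut in all 3 ART558 libraries. The reference DMSO libraries held 8.56% to 11.6%. Of the 36 inverted junctions of ART558 library 1, 23 lay at only 2 prey positions, 541 and 88 bp past the cut. The first of these, base 70949567, was also the most frequent inverted prey in both DMSO libraries, with 25 and 23 junctions, and 13 different bait ends were joined to it in ART558 library 1. In the 7 reference libraries the most frequent inverted prey lay at other bases, with 3 to 11 junctions. Inverted prey from 10 kb to 1 Mb was rare in every library, with 0.200% and 0.164% in DMSO and 0.0803%, 0 and 0.0553% in ART558. For ART558 library 2 the 0 allows a share of up to 0.0638%, taken as 3 counts of its 4700 junctions, and its Wilson upper limit was 0.0817%.

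Deletions under 200 bp took 9.62% and 9.77% of the DMSO junctions and 23.1%, 10.4% and 20.8% of the ART558 junctions. ART558 libraries 1 and 3 were more than 2 times the DMSO level and library 2 was inside the reference range of 8.20% to 11.95%. In the first 4722 rows the DMSO shares were 15.5% and 15.8%, and the ART558 shares of 23.8%, 10.4% and 27.6% overlapped them through library 2, so this rise rested on libraries 1 and 3. Relative to the deletions alone the shift was present in each ART558 library. The median deletion distance past the cut was 998 and 893 bp in DMSO and 46.5, 78.0 and 110 bp in ART558 (reference 845 to 1099 bp; exact permutation p = 0.1), and 851.5 and 786 against 46, 78 and 59 bp in the first 4722 rows. Deletions under 25 bp past the cut made up 7.42% and 8.30% of all deletions within 1 Mb in DMSO and 35.6%, 31.0% and 28.1% in ART558. From 100 to 200 bp the groups overlapped, with 4.59% and 4.90% against 3.95%, 4.73% and 4.09%, and from 200 bp to 10 kb every distance range held a smaller share in all 3 ART558 libraries. From 1 to 3 kb, for example, the shares were 31.8% and 31.2% in DMSO and 12.9%, 15.8% and 16.3% in ART558.

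**Figure D2:**
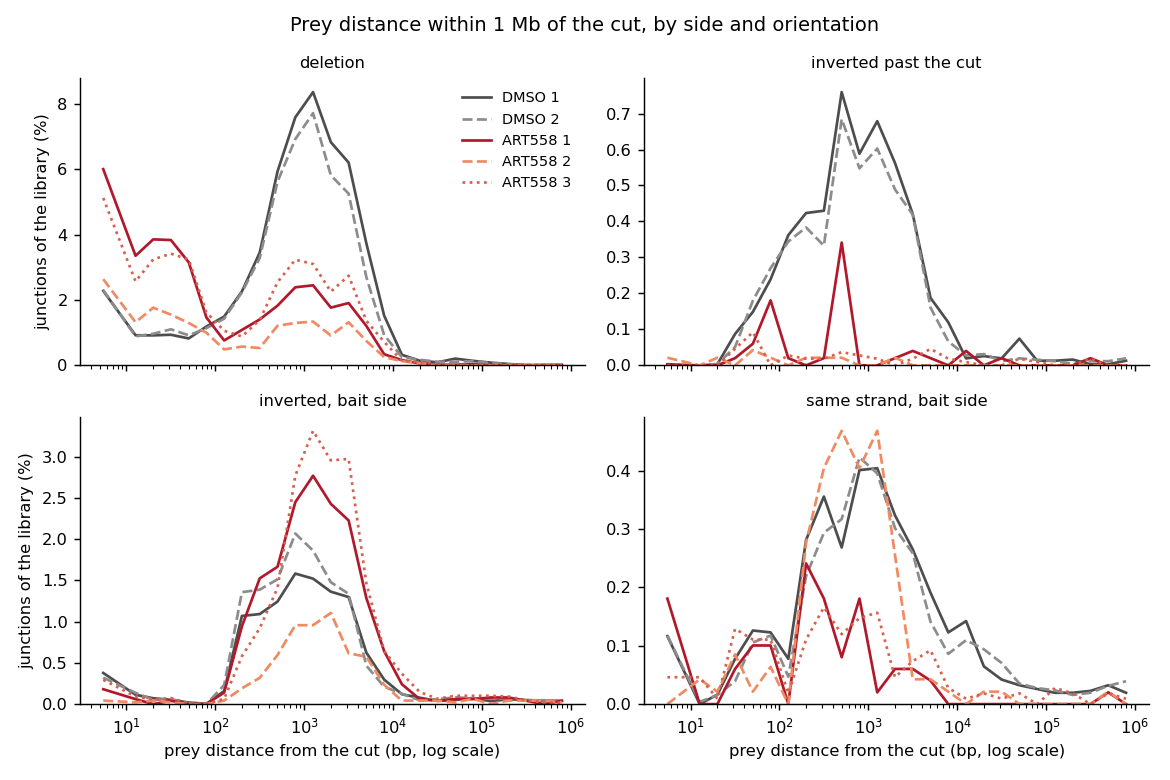
Prey distance from the cut (x axis, bp, log scale) for the 4 combinations of side and orientation within 1 Mb, as the share of each library's junctions per distance bin (y axis, percent, a different scale in each panel). Deletions in the DMSO libraries peaked near 1 kb, and those of the ART558 libraries were most frequent under 100 bp. Inverted prey past the cut was close to 0 in ART558 apart from 2 peaks in library 1.

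Joins to the bait side did not move the same way in all 3 ART558 libraries. They made up 15.04% and 16.5% of the DMSO junctions and 18.4%, 8.77% and 20.2% of the ART558 junctions, and the groups overlapped through library 2: libraries 1 and 3 lay above both DMSO libraries. The first 4722 rows held 12.5% and 14.8% against 18.6%, 8.77% and 19.5%. Their make-up differed. Same-strand prey, which repeats the bait side in the same direction, fell from 3.57% and 3.35% of junctions to 1.33%, 2.68% and 1.54%, below the reference range of 3.07% to 3.89% in all 3 ART558 libraries. Inverted bait-side prey stood at 11.5% and 13.2% in DMSO and at 17.1%, 6.09% and 18.7% in ART558. Among bait-side joins the same-strand part was 23.7% and 20.3% in DMSO, 7.21% and 7.60% in ART558 libraries 1 and 3, and 30.6% in library 2. The inverted bait-side prey also lay farther from the break in ART558, with medians of 1270, 1532 and 1547 bp against 984 and 878 bp in DMSO (reference 986 to 1162 bp; exact permutation p = 0.1). Distance thus moved in opposite directions on the 2 sides of the cut, towards the break for deletions and away from it for inverted bait-side joins.

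Joins to other chromosomes made up 19.7% and 23.2% of the DMSO junctions and 38.7%, 65.5% and 34.8% of the ART558 junctions. The groups did not overlap, and all 3 ART558 libraries exceeded the reference range of 15.3% to 26.4%. The mean was 2.16-fold higher in ART558 (46.3% ± 16.7 SD, n = 3, against 21.5% ± 2.51 SD, n = 2; exact permutation p = 0.2), and library 2 carried much of that mean. In the first 4722 rows the shares were 9.62% and 11.3% against 37.7%, 65.5% and 28.1%. A share says nothing of absolute numbers: more joins to other chromosomes and fewer joins near the break cannot be told apart here. Prey on chromosome 6 beyond 1 Mb held 4.53% and 5.45% against 4.98%, 7.11% and 5.62%, and the groups overlapped. Over the first 4722 rows its shares were 2.65% and 3.67% against 4.98%, 7.11% and 5.49%, and the groups did not overlap. Of these far joins, 21.3% and 19.97% lay within 10 Mb of the cut in DMSO and 16.9%, 11.4% and 17.7% in ART558.

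The classes were then split by what lay at the joint, into 7 groups from insertions of 10 bp or more through direct joints to microhomologies of 5 bp or more. Of 56 combinations, 47 held a mean of at least 10 junctions and were tested with limma on the log2 share of the library. It called 21 of them at an adjusted p under 0.05 (44.7%), 16 lower (34.0%) and 5 higher (10.6%) in ART558, and the median log2 difference over all 47 was -0.10. The minimum was set on the mean of all 5 libraries, and 12 of the 47 groups, the 7 inverted ones and 5 of deletions of 10 kb to 1 Mb, reached it through DMSO alone. A group of that kind had to be lower in ART558, so the 10 of the 16 lower calls that lie among the 12 (all 7 inverted groups and 3 deletions) are a description and support nothing. Of the other 35 groups, 6 of the 7 groups of deletions of 200 bp to 10 kb were called lower, while 0 of the 7 bait-side groups was called. The median log2 differences of these 2 classes were -1.88 and 0.04. With no minimum limma called 18 of 56 groups lower (32.1%) and 2 higher (3.57%). The 6 calls in deletions of 200 bp to 10 kb and 8 of the 10 remained, and 3 of the 5 higher calls were lost.

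**Figure D3:**
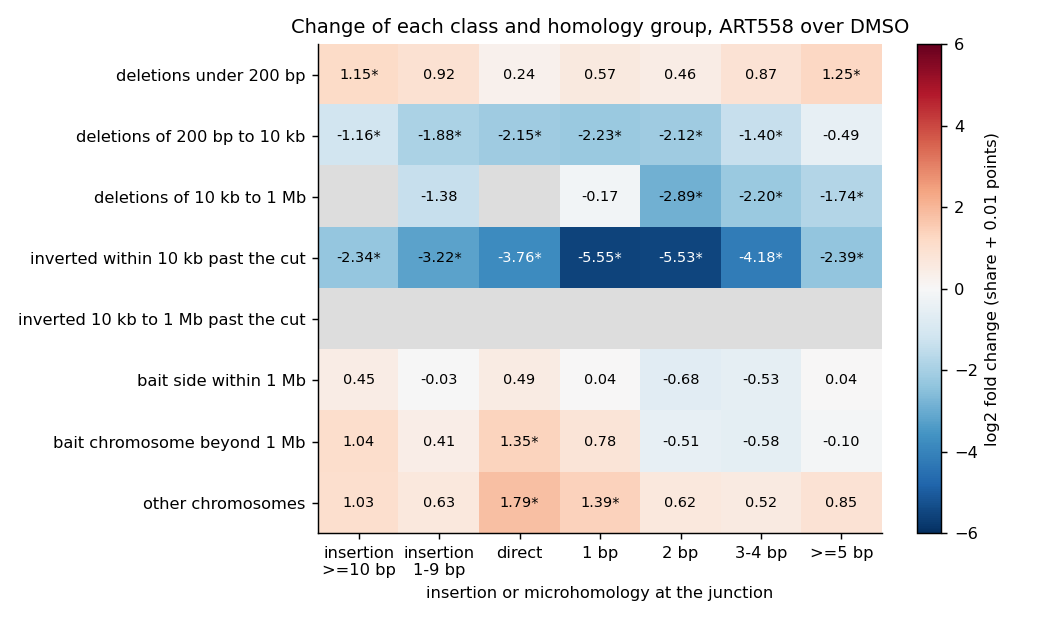
Log2 fold change of ART558 over DMSO (colour and number, on shares plus 0.01 percentage points) for each junction class (rows) and each group of insertion or microhomology (columns). Asterisks mark an adjusted p under 0.05 in limma, and grey cells held too few junctions. All inverted groups and 5 groups of deletions of 10 kb to 1 Mb reached the minimum through DMSO alone, 6 of 7 groups of deletions of 200 bp to 10 kb were called lower, and the direct joins to other chromosomes and to distant chromosome 6 were called higher.

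The inverted groups are described by their junctions, with the adjusted p of the fit that had no minimum. Those with 2 bp of microhomology made up 1.05% and 1.02% of the DMSO junctions, and were absent from ART558 library 1 and read once in library 2 and 3 times in library 3 (limma log2 difference -5.53 ± 0.72 SE, adjusted p = 0.000334). Inverted joins with 1 bp of microhomology were read 197 and 132 times in DMSO and once in all 3 ART558 libraries together (adjusted p = 0.000122, limma). With so few junctions these log2 values depend on the pseudocount. Inverted joins with insertions of 10 bp or more passed the threshold with the minimum (adjusted p = 0.00244, limma) and did not pass it with none (log2 difference -2.34 ± 1.22 SE, adjusted p = 0.142). ART558 library 1 had 0.402% of them against 0.323% and 0.340% in DMSO. Library 2 had 0 such junctions, and without it the log2 difference was -0.96 (adjusted p = 0.0740, limma).

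Deletions of 200 bp to 10 kb were called lower in every group but that with the longest microhomologies; whether the groups fell by different amounts was not tested. Direct joints in this class fell from 4.91% and 4.09% of the library to 1.02%, 0.638% and 1.54% (log2 difference -2.15 ± 0.44 SE, adjusted p = 2.52e-05, limma). With no minimum the adjusted p of this group was larger, 0.00308 (limma). Joints with 1 bp fell by 2.23 and joints with 2 bp by 2.12 on the log2 scale. The joints with 5 bp or more were the single group of the class that was not called, with a log2 difference of -0.49 ± 0.43 SE (adjusted p = 0.343, limma). The deletions of this size in ART558 had longer microhomologies. Their mean, over joints with 0 to 10 bp, was 1.95 and 2.01 bp in DMSO and 2.76, 2.57 and 2.49 bp in ART558, and 3 bp or more was used by 28.5% and 29.5% of them in DMSO and by 48.2%, 42.1% and 44.2% in ART558. The groups did not overlap in either measure (exact permutation p = 0.1), and in the first 4722 rows the means were 2.23 and 2.27 against 2.74, 2.57 and 2.48 bp.

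The 5 calls in the upward direction fell in 3 classes. Direct joins to other chromosomes rose from 3.14% and 3.29% of the library to 7.63%, 22.1% and 8.21% (log2 difference 1.79 ± 0.65 SE, adjusted p = 0.0204, limma), and those with 1 bp of microhomology from 2.59% and 3.21% to 6.29%, 11.9% and 5.79% (adjusted p = 0.0416). Direct joins to chromosome 6 beyond 1 Mb rose from 0.381% and 0.524% to 0.843%, 2.09% and 0.884% (adjusted p = 0.00907, limma). Deletions under 200 bp rose in the group with 5 bp or more, from 0.349% and 0.352% to 1.19%, 0.617% and 0.829% (adjusted p = 0.0198), and in the group with long insertions (adjusted p = 0.0389), where library 2 overlapped the DMSO libraries. With no minimum, the calls on other chromosomes were lost (adjusted p = 0.0563 for direct joins and 0.0649 for 1 bp, limma), as was that of long insertions in deletions under 200 bp (adjusted p = 0.0986), and the other two remained (adjusted p = 0.0435 for both). In the first 4722 rows 0 of the 7 groups of deletions under 200 bp were called. There 5 of 7 groups on other chromosomes, 4 of 7 on chromosome 6 beyond 1 Mb and 1 of 7 on the bait side were called higher. Of the deletions of 200 bp to 10 kb, 5 of 7 groups were called lower, as were 4 of 4 inverted groups. Inverted joins held 3.90% and 4.24% of those rows in DMSO and 0.733%, 0.191% and 0.297% in ART558. The inverted groups thus reached the minimum through DMSO alone and had to be lower, so their calls support nothing. Without ART558 library 2, limma called 19 of 48 groups higher (39.6%) and 16 lower (33.3%). All 7 groups of deletions under 200 bp then rose, as did 4 of 7 bait-side groups and 5 of 7 groups on other chromosomes. On chromosome 6 beyond 1 Mb calls went both ways, with 3 of 7 groups higher and 2 lower. The lower calls include 6 inverted groups and 2 of deletions of 10 kb to 1 Mb, which again reached the minimum through DMSO alone. Leaving out either DMSO library left 7 calls, all of them lower; the lone DMSO library is then assumed to vary like the ART558 libraries. Of the 5 upward calls, 0 remained without ART558 library 3 and 3 without library 1, 1 remained with the library number as a block, and 0 remained when shares were taken within the class. Of the 16 lower calls, 2 remained when shares were taken within the class.

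Microhomology was read in detail where prey lay beyond 1 Mb or on another chromosome, since there bait and prey sequences are free to vary. Joins without any shared base became the most frequent kind in ART558. Among joints with 0 to 10 bp, direct joints made up 19.6% and 17.5% in DMSO and 28.7%, 38.9% and 30.6% in ART558, a 1.76-fold rise of the mean whose groups did not overlap (exact permutation p = 0.1). Joints with 2 bp, the commonest in DMSO, made up 22.3% and 22.7% in DMSO and 15.4%, 14.1% and 17.9% in ART558. Over the 11 lengths, 6 did not overlap between the groups (54.5%): 0 and 1 bp were higher in ART558 and 2, 3, 4 and 5 bp were lower, while the lengths from 6 to 10 bp overlapped. The mean microhomology was 2.35 and 2.42 bp in DMSO and 2.07, 1.64 and 1.85 bp in ART558, and microhomologies of 3 bp or more fell from 41.2% and 42.3% to 32.3%, 25.8% and 29.1%.

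The DMSO libraries of this run themselves had more direct joints than the reference DMSO libraries, which held 7.42% to 8.98%, a mean microhomology of 2.81 to 2.89 bp and 24.7% to 27.9% of joints with 2 bp. All 5 libraries thus lay on the same side of the reference range, with ART558 farther from it. The run differs between the collections, so run and collection cannot be told apart.

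**Figure D4:**
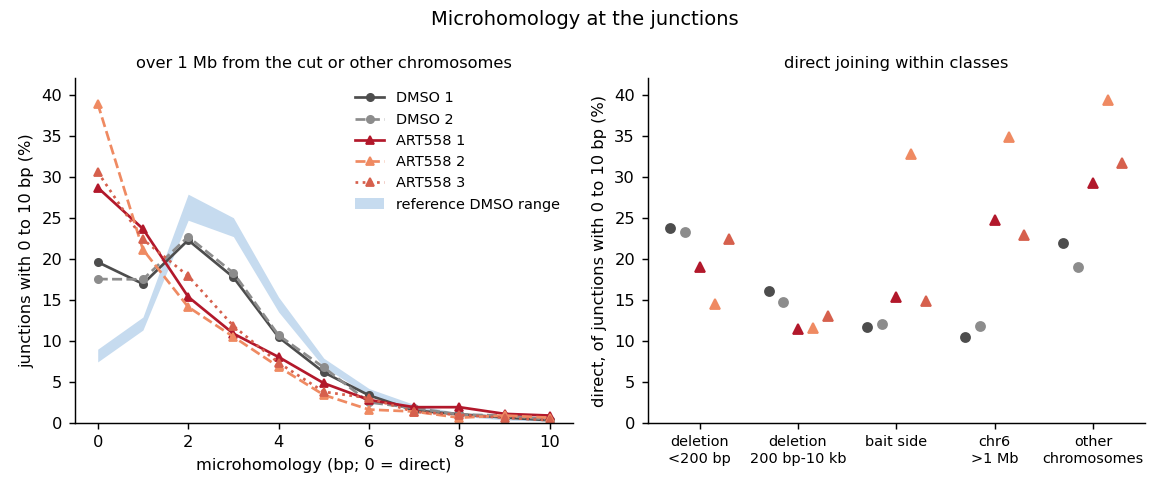
Left, share of each microhomology length (x axis, bp, 0 is direct) among far joints with 0 to 10 bp (y axis, percent), by library, with the reference DMSO range in blue. Right, share of direct joints within 5 junction classes by library (circles DMSO, triangles ART558). Direct joints were higher in all 3 ART558 libraries for bait-side joins, distant chromosome 6 and other chromosomes, and lower for both deletion classes over the whole files.

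Within the deletions the direct share depended on the rows used. Among deletions of 200 bp to 10 kb direct joints made up 16.02% and 14.7% in DMSO and 11.5%, 11.6% and 13.0% in ART558, and among deletions under 200 bp 23.8% and 23.3% against 19.01%, 14.4% and 22.4%. In the first 4722 rows this difference turned round to 10.99% and 9.98% against 11.6%, 11.6% and 13.0% for the longer deletions, and the shorter ones overlapped, with 14.7% and 15.8% against 18.6%, 14.4% and 22.6%. For bait-side joins the direct share was 11.7% and 12.1% in DMSO and 15.3%, 32.7% and 14.8% in ART558, with library 2 far above the others. For distant chromosome 6 the direct share was 10.4% and 11.8% in DMSO and 24.7%, 34.9% and 22.9% in ART558, and for other chromosomes 21.96% and 19.0045% against 29.2%, 39.4% and 31.7%. The first 4722 rows left those shares apart, at 12.3% and 8.55% against 23.8%, 34.9% and 26.4% for distant chromosome 6. Whether the change of direct joining differs between classes was not tested.

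Insertions, bases in the read that belong to neither bait nor prey, overlapped between the groups over all 5 libraries, through ART558 library 2. Far joins with an insertion of any length made up 25.3% and 23.6% in DMSO and 31.6%, 13.2% and 25.8% in ART558, so that the DMSO libraries lay inside the range of the ART558 libraries (exact permutation p = 1). Over the first 4722 rows their share was 16.1% and 15.3% against 29.8%, 13.2% and 19.6%, so that the difference of the means turned from -0.91 to 5.15 percentage points, and it was 1.14 without the joins at 7 bait positions that all 5 libraries used more often than the reference libraries did. The groups overlapped in all 3 cases. Insertions of 1 to 9 bp held 15.8% and 14.9% against 19.8%, 6.21% and 14.6%, and insertions of 10 bp or more 9.48% and 8.69% against 11.8%, 7.005% and 11.2%. The median inserted length was 6 bp in both DMSO libraries and in ART558 library 1, 10 bp in library 2 and 8 bp in library 3. Among deletions under 200 bp insertions made up 48.8% and 46.0% in DMSO and 56.2%, 46.4% and 60.5% in ART558. Reads with a run of 10 G made up 1.54% to 2.99% of far joins in the 5 libraries and 0.0224% to 0.239% in the reference libraries; leaving them out kept the overlap. Without library 2 the ART558 shares of all insertions and of insertions of 10 bp or more lay above both DMSO libraries, whereas those of 1 to 9 bp did not separate. Among joins to other chromosomes alone, insertions made up 26.9% and 24.9% in DMSO and 31.6%, 13.1% and 25.01% in ART558, and libraries 1 and 3 still overlapped the DMSO libraries.

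The bait end lost more bases in ART558. Over far joins the mean loss was 13.7 and 14.9 bp in DMSO and 23.04, 19.5 and 23.1 bp in ART558, where the reference DMSO libraries held 12.4 to 16.8 bp. The groups did not overlap, and the means differed by 7.56 bp (14.3 ± 0.855 SD, n = 2, against 21.9 ± 2.07 SD, n = 3; exact permutation p = 0.1). The same order held in the other classes with enough junctions. Among bait-side joins the mean loss was 12.2 and 13.6 bp in DMSO and 27.6, 22.6 and 28.03 bp in ART558. Among deletions of 200 bp to 10 kb it was 13.5 and 13.8 bp against 19.1, 17.1 and 19.7 bp, the smallest difference of the 5 classes with enough junctions.

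The loss was not a plain shift of the whole distribution. Ends that had lost 1 to 5 bp fell from 28.1% and 24.1% to 12.1%, 12.5% and 11.8%, and ends that had lost 6 to 20 bp from 31.7% and 34.9% to 20.6%, 13.98% and 21.4%. Losses of 21 to 40 bp overlapped between the groups. Losses of 41 to 60 bp rose from 12.03% and 11.6% to 28.03%, 28.96% and 26.1%, with 4.43% to 7.80% in the reference DMSO libraries. No far join in these libraries had lost more than 63 bp of the 98 bases of the bait, so the mean losses have a ceiling. At the other side, bait ends that ran past the predicted cut rose from 6.50% and 5.54% to 13.0%, 26.9% and 10.4%, with 0.319% to 1.18% in the reference libraries.

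**Figure D5:**
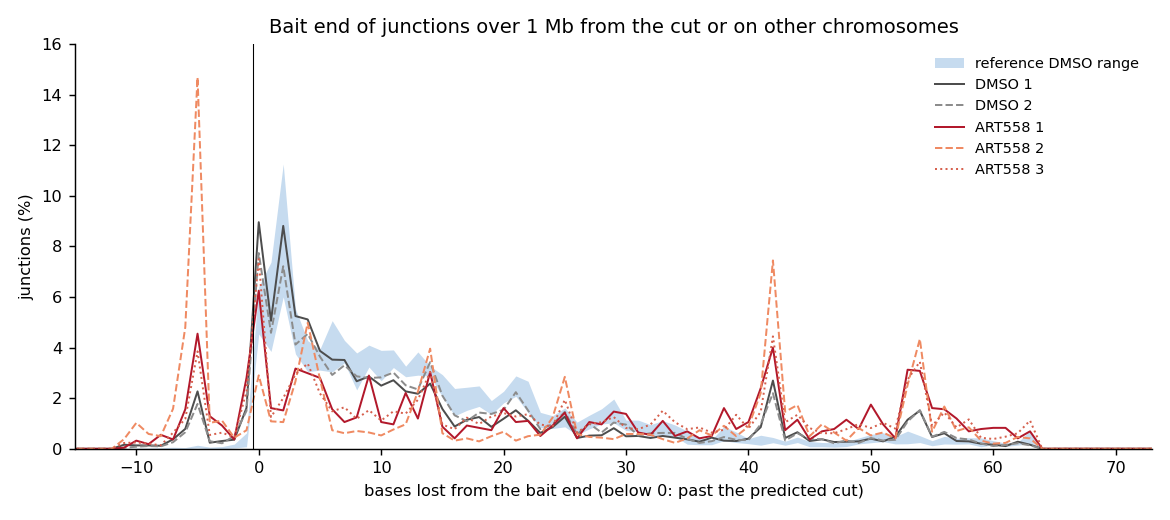
Position of the bait end (x axis, bases lost from the predicted cut, below 0 past it) of joins to distant chromosome 6 and other chromosomes, as a share of each library's far joins (y axis, percent), with the reference DMSO range in blue. All 5 libraries have peaks 5 bases past the cut and at losses of 42 and 54 bp that the reference libraries lack, and the peaks are higher in ART558.

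At 7 bait-end positions all 5 libraries exceeded every reference library and 1 of them at least held more than 2% of its far joins. Together these positions held 10.9% and 9.70% of far joins in DMSO, 21.5%, 36.7% and 19.4% in ART558 and 1.36% to 2.77% in the reference libraries. The position 5 bases past the cut held 2.27% and 1.77% in DMSO and 4.55%, 14.7% and 3.85% in ART558, and a loss of 42 bp held 2.70% and 2.20% against 4.00%, 7.44% and 4.44%. Direct joints were frequent at both: 78.2% and 66.9% of the DMSO joins that ended 5 bases past the cut, and 71.7%, 76.0% and 74.6% of those in ART558, were direct. A loss of 54 bp was also rich in direct joints, with 41.8% to 58.4% over the 5 libraries, while at the other 4 positions direct joints held at most 7.69%, apart from 32.0% in ART558 library 2 at 1 base past the cut. Whether they are ends of joined chromosomes or products of library preparation was not tested, and the shares of ends past the cut and of losses of 41 to 60 bp include them. Without the 7 positions, direct joints made up 15.98% and 15.1% in DMSO and 24.9%, 28.7% and 27.3% in ART558, the mean microhomology was 2.55 and 2.58 against 2.38, 2.14 and 2.09 bp, and the mean loss was 12.3 and 13.7 against 22.2, 20.2 and 21.9 bp. The groups still did not overlap in any of the 3 measures, and library 2 came close to the other ART558 libraries in all of them.

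Over the whole files no shift of the prey of the chr6 break across the genome was called. Of 253 bins of 10 Mb off chromosome 6, limma called 0 (0%), with 3 bins at an unadjusted p under 0.05. Over the first 4722 rows, where 154 bins could be tested, 3 were called higher in ART558 (1.95%, adjusted p = 0.0244, limma). They lay at chr12:90000001-100000000, chr13:10000001-20000000 and chr2:70000001-80000000, with log2 differences of 5.49, 5.12 and 5.76. Differences of that size put the DMSO libraries near the floor set by the pseudocount of 0.1. These bins reached the minimum through ART558 alone and had to be higher, so the calls are a description and support nothing. Over the whole files the same bins differed by 0.59, 0.49 and 0.59 on the log2 scale (adjusted p = 0.938, limma). The bin with the lowest p, chr4:150000001-156508116, held 4.43 and 4.55 junctions per 1000 in DMSO and 1.04, 1.95 and 1.85 in ART558 (log2 difference -1.47 ± 0.50 SE, adjusted p = 0.938, limma). The other bins of the 5 with the lowest p had the same adjusted p, and they lay at chrY:90000001-91744698 and chr13:100000001-110000000, lower in ART558, and at chr16:60000001-70000000 and chr4:80000001-90000000, higher in ART558. Of the 20 chromosomes off the bait, 2 (10.0%) did not overlap between the groups. Chromosome 15 held 35.96 and 39.4 per 1000 in DMSO and 39.4, 47.1 and 46.3 in ART558, and chromosome 19 held 26.1 and 27.1 against 24.9, 25.99 and 24.35 (adjusted p = 0.941 for both, exact permutation). Prey fell on the plus strand in 48.9% and 49.9% of DMSO joins and in 51.1%, 50.4% and 49.9% of ART558 joins.

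Protein-coding gene bodies held 47.7% and 46.4% of the joins to other chromosomes in DMSO and 48.4%, 44.8% and 45.3% in ART558. Positions within 1 kb of a start site held 5.35% and 5.54% against 10.2%, 4.09% and 4.00%, where ART558 library 1 alone was above DMSO. Genes at recurrent DNA-break clusters (RDCs), sites that break repeatedly in neural progenitors under replication stress, were taken from the study's list and split there by replication timing into constant-timing (CTR) and timing-transition (TTR) regions. The 33 CTR genes off chromosome 6 received 0.328 and 0.396 junctions per 1000 per Mb in DMSO and 0.425, 0.320 and 0.441 in ART558, and the groups overlapped. The 59 TTR genes received 0.343 and 0.368 in DMSO and 0.410, 0.551 and 0.369 in ART558, which did not overlap (exact permutation p = 0.2), and both DMSO libraries and 2 of 3 ART558 libraries lay below the reference range of 0.428 to 0.603. The mean was higher in ART558 for 15 CTR genes and higher in DMSO for 18, and for the TTR genes these numbers were 36 and 22. The median gene held 8 junctions over the 5 libraries in the CTR class and 5 in the TTR class. A single junction weighs more in the smaller ART558 libraries. These numbers of genes were not tested or set against other genes.

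Single RDC genes held few junctions. Ptprt, a receptor tyrosine phosphatase gene and the fullest of those named, had 6 and 13 junctions in DMSO and 2, 5 and 0 in ART558. Of these, 12 lay in 1 recurrent window of 1 kb, chr2:162022001-162023000, with 2 and 9 in DMSO and 1, 0 and 0 in ART558. The reference libraries held 31 junctions in that window. Auts2, a neurodevelopmental gene, had 5 and 5 against 3, 1 and 4. Nrg3, a neuregulin gene, had 2 and 2 against 2, 1 and 0. Negr1, a neuronal cell adhesion gene, had 0 and 3 against 3, 1 and 5, and Nbea, a neuronal trafficking gene, 3 and 2 against 2, 1 and 2. Adgrl2 and Klhl29 had 6 junctions each over the 5 libraries and Samd5 had 1. No exact permutation p of these 8 genes was below 0.3, and at such counts a difference was not detectable.

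Recurrent prey sites took a share of the joins to other chromosomes in both groups. There were 29 windows of 1 kb with at least 10 junctions, and they held 6.57% of these joins, with 6.96% and 7.75% in DMSO and 13.9%, 3.74% and 2.65% in ART558. The fullest, chr2:98666001-98667000 at the predicted gene Gm10800, held 8.54 and 10.1 junctions per 1000 in DMSO and 22.8, 3.90 and 3.97 in ART558. Its 183 junctions lay at 131 distinct positions. The next were chr14:19417001-19418000 at Gm21738 with 143 junctions, chr2:98667001-98668000 at Gm10800 with 133, chr14:19418001-19419000 at Gm21738 with 110 and chr9:35305001-35306000 outside genes with 100. All 5 windows were also filled in all 7 reference libraries. ART558 library 1 was highest and ART558 library 3 at or near the lowest in each of them, so in none of them did the groups separate. No mapping-quality filter could be run, so whether reads were misplaced at the recurrent windows was not tested.

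One window outside the named 5, picked after its values were seen, resembled the guide. It is shown beside the guide because it is the 1 recurrent site with such a match: 15 of its 20 bases equal the guide's, next to an AGG PAM, where the next best of the other sites reached 12. It falls short of the 16 matching bases set as the minimum for a guide-like site, which 0 of the 29 windows reached. Capitals mark the bases that differ from the guide.
Guide, chr6:70950106-70950125, minus strand: gagggttggaaatgctcgta
Site, chr4:141560029-141560048, minus strand: AGgggCtggaaatgcCcgtG
Within 1 kb of the point where Cas9 would cut this site, between bases 141560031 and 141560032, lay 15 and 55 junctions in DMSO, 5, 1 and 24 in ART558 and 143 in the 7 reference libraries. Of the 100 junctions in the 5 libraries, 96 ran away from that point on the strand that a break there would give, as did 132 of the 143 in the reference libraries. The site held 2.46 and 9.26 junctions per 1000 in DMSO and 2.59, 0.325 and 6.35 in ART558, and the groups overlapped.

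The same inhibitor was also used with a bait on chromosome 12, with 3 ART558 and 2 DMSO libraries. Whether the response differed between the baits was tested by exact permutation of the bait labels within each treatment, over 6 measures. Direct joining differed between ART558 and DMSO by 14.2 percentage points on chr6 and 13.4 on chr12 (difference 0.73, adjusted p = 0.983). Other chromosomes rose by 24.9 points on chr6 and 34.5 on chr12, deletions under 200 bp by 8.43 and 4.34 points, and bait-end loss by 7.56 and 14.8 bp. The bait was 98 bases long on chr6 and 132 on chr12, so the loss that can be read has a different ceiling on each. None of the 6 differences passed the test (adjusted p = 0.983 for each). The smallest p the test allows is 0.0167, so 1 measure alone could not have passed after adjustment over 6. The 2 baits were on different sequencing runs (bait cannot be told apart from run), and their own levels differ, for example a mean DMSO loss of 43.1 and 39.5 bp on chr12, and that gap between baits stays in the permuted values, which limits what the test can call.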

How the data were processed

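The authors trimmed reads with the HTGTS pipeline, aligned them to mm10 with Bowtie2 (version not given in the sources used here) and deposited 1 junction table per library, in which no row is marked as a duplicate. Each row gives bait and prey coordinates of 1 kept junction (unit: other, junction records rather than counts). The build equals GRCm38, so the guide, primer and annotation (GENCODE M21) were placed on that genome. Rows on the autosomes, X and Y were used. Microhomology is the overlap of bait and prey in the read, and a negative value is an insertion. The members, gene lists and tests were chosen with earlier results of these data known.

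Library shares were compared by two-sided exact permutation of 5 libraries (10 assignments). Shares of 47 class-by-homology groups, log2(percent + 0.01), and 253 bins, log2(junctions per 1000 + 0.1), were fitted with limma 3.58.1 (trend), with a mean of at least 10 or 5 junctions and Benjamini-Hochberg adjustment, after the code was tested on simulated data. Depth was 4700 to 30938 junctions. Intervals are Wilson 95% and cover counting error only. Alternatives left out each library, counted unique junctions, changed limits, pseudocounts and bins, or, chosen after seeing the data, used lane 1 or the first 4722 rows of each file, or left out recurrent bait ends, bait ends past the cut or reads with a run of 10 G. Named items were 8 RDC genes (Nrg3, Auts2 and the 6 with most junctions per Mb of gene body in the 5 libraries together), the 5 fullest recurrent windows, the 5 most frequent bait products, limma calls, and the 5 bins with the lowest p. Of the RDC names, 42 of 42 CTR and 62 of 65 TTR names matched the annotation.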

Additional observations from a re-analysis of the deposited data

Results flagged for a closer look

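Among the 7 reference DMSO libraries, 3 of 22 measures had 1 library far from the others, where chance gives about 1 in 20. Inverted prey within 10 kb held 6.40% of junctions in reference library 6, against 4.79% to 5.42% in the others. Insertions of 1 to 9 bp held 14.8% of far joins in reference library 7, against 12.4% to 13.2%. RDC genes of the CTR class received 0.555 junctions per 1000 per Mb in reference library 5, against 0.289 to 0.402.

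Junctions on unplaced contigs, which entered no comparison, made up 1.85% of the complete rows of ART558 library 1, above the DMSO libraries (0.267% and 0.560%). The other ART558 libraries held 0.466% and 0.211%.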

How the results depend on the processing

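Of 33 results, 20 kept their direction under every alternative run; for those judged by the exact permutation test, which cannot pass 0.05 here, a call could not change. Among them were the fall of deletions of 200 bp to 10 kb (-38.7 to -24.3 percentage points) and of inverted joins within 10 kb (-4.75 to -3.66), the rise of joins to other chromosomes (15.3 to 33.3), direct joining (2.08, within 1 Mb of the cut, to 16.2) and bait-end loss (6.85 to 11.9 bp). Deletions under 200 bp kept their direction, but their groups overlapped in the first 4722 rows. All values here are ART558 minus DMSO unless named as counts, and the cause of each turn was not tested. The labels do not say that library numbers pair the treatments (correlation of deviations 0.06 and 0.15 for the 2 pairs). The replicate block left 17 limma calls of 47 and 0 bins, and turned the bait-side share to -2.19 and its inverted part to -0.74.

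The bait-side share also turned with unique junctions (-0.0275) and ranged from -2.19 to 3.54 as each library was left out, its inverted part from -0.74 to 5.57. Insertions of 1 to 9 bp turned in the first 4722 rows (2.05) and within 1 Mb of the cut (2.52), and ranged from -4.95 to 1.82 without 1 library. Within 1 Mb of the cut, mean microhomology rose by 0.19 bp and the share with 3 bp or more by 5.59 points. In the first 4722 rows, direct joining turned to 3.31 in deletions under 200 bp and 1.57 in those of 200 bp to 10 kb, and the share in gene bodies to 1.33. There 3 bins were called (chr12:90000001-100000000, chr13:10000001-20000000 and chr2:70000001-80000000, all higher in ART558). These bins reached the minimum through ART558 alone, so their direction was fixed and the calls support nothing. With 1 library left out, start sites ranged from -1.40 to 1.71 and CTR genes from -0.00036 to 0.0716.

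limma called 7 to 35 groups as each library was left out, 35 without ART558 library 2 and 7 without either DMSO library, and 11 as shares within the class. Among those 11 were 2 of the 21 main calls, both of them lower. As shares within the class, 4 groups turned: deletions of 200 bp to 10 kb with long insertions (0.60) and 3 to 4 bp (0.37), and inverted joins with short insertions (0.33) and 5 bp or more (1.08), all log2. Chromosomes whose groups did not overlap numbered 2, and 0 with lane 1 or without bait ends past the cut, 1 without G runs, 4 to 11 as each library was left out, and 8 of 20 moved the same way in both pairs under the replicate block. The difference between baits turned for direct joining without bait ends past the cut (-0.91) and recurrent ends (-2.45), and ranged from -2.36 to 2.75 with 1 library left out. For insertions it turned without G runs (-0.15) and ranged from -3.43 to 5.75, and for mean microhomology from -0.0164 to 0.202. The mapping-quality filter was not run, since that field is 0 in every row. The smallest library limits the rare classes.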
